A study of Mus musculus with 4 samples.

Results

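Skeletal muscle of an ob/ob mouse was compared with that of a wild-type (WT) mouse, both carrying Txnip, with 1 array a side. All genes whose spots stood well above background on both arrays were taken, which gave 15092 of the 27594 genes on the array, and genes for which the WT array alone departed from all the others were set apart. The study profiled muscle of 4 genotypes, 1 array each: WT, TBP-2-/- (mice without Txnip, written Txnip-null here), ob/ob, and ob/ob TBP-2-/- (ob/ob Txnip-null). All mice were 10 weeks old and had free access to food. Total RNA was labelled with Cy3 and hybridised to 1-colour Agilent mouse arrays that lay on 1 slide and were read in 1 scan. The labels do not state which muscle was dissected, the strain or sex, the ob allele, the deleted stretch of Txnip, or whether each RNA stands for 1 mouse or several pooled. The title of the ob/ob sample gives its genotype as ob/ob, while its genotype field reads Tob/ob, and the title was followed.

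The ob/ob mouse lacks functional leptin, the hormone by which fat tissue signals its stores to the brain. It overeats, becomes obese and insulin resistant, and is known for low growth hormone secretion and small muscles. Growth hormone acts in muscle through the kinase JAK2 and the transcription factor STAT5, whose targets include the feedback inhibitors Cish and Socs2. Txnip encodes an arrestin-like partner of thioredoxin that also limits the uptake of glucose.

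The 4 arrays had between 22678 and 24223 of 41174 probes well above background, the lowest number on WT. No spot was saturated, and probes printed many times on an array had a median standard deviation between spots of 0.06 to 0.07 on the log2 scale. Of the 8 skeletal muscle fibre markers, all 8 were well above background on both arrays, and their summed signal was 2757380 on WT and 2406810 on ob/ob. Acta1, the skeletal alpha-actin gene, gave 426009, 366836, 378567 and 415749 on WT, then Txnip-null, then ob/ob and last ob/ob Txnip-null, the order in which signals are listed throughout. A signal is the scanner's processed spot signal divided by the array's 75th percentile and multiplied by a common factor, so that arrays can be compared; signals of different probes are not comparable levels. An error after ± is the standard error of a log2 difference from the scanner's error model. That error is technical and leaves out the spread between mice, and with 1 array per genotype a pairwise difference has no replicate check and no p-value. In whole muscle, fewer cells of a type and less RNA per cell cannot be told apart.

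Most genes differed little between ob/ob and WT muscle. The log2 difference was within 1.5-fold for 86.95% of the 15092 genes, and the median over all of them was -0.05. A signal 2-fold or more higher in ob/ob was seen for 282 genes (1.87%), and one 2-fold or more lower for 264 genes (1.75%), together 546 genes (3.62%). Both margins of the cloud held named genes far from the diagonal, with Mss51 and the tendon gene Comp on the higher side and Cish, Cfd and Ighm on the lower. The balance between the sides rests on the scaling. Scaled to the spike-in RNA in place of the 75th percentile, the median over all genes became 0.55 and the split 1748 higher and 79 lower.

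**Figure D1:**
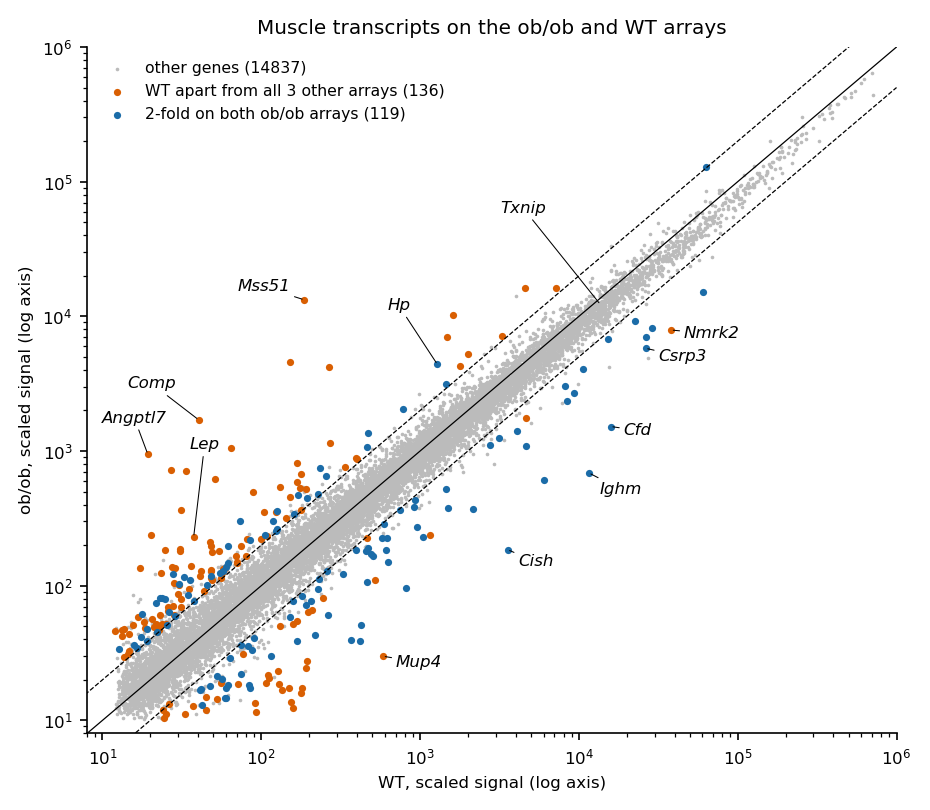
Scaled signal of the 15092 genes on the WT array (x, log axis) and the ob/ob array (y, log axis), with equality as a solid line and 2-fold as dashed lines. Orange points are the 136 genes for which WT lay 2-fold or more from all other arrays, and blue points a further 119 genes that differed 2-fold or more in both comparisons of ob/ob with lean muscle. Txnip lies near the line, Mss51, Comp and Angptl7 far above it, and Cish, Ighm, Cfd and Mup4 far below.

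The other arrays separate these 546 genes into classes. WT stood alone, 2-fold or more below each of the other 3 arrays, for 97 genes (0.643% of the 15092), which are 34.4% of the 282 higher genes. It stood alone above them for 39 genes (0.258%), which are 14.8% of the 264 lower ones. ob/ob stood alone above the other arrays for 23 genes (0.152%) and alone below them for 32 genes (0.212%). A class of its own is formed by genes for which ob/ob differed from WT and ob/ob Txnip-null from Txnip-null by 2-fold or more in the same direction. These comparisons share no array. Over all 15647 genes measured on both arrays without Txnip, 1.77% were 2-fold or more higher in ob/ob Txnip-null and 1.68% lower. Among the 14941 genes measured on all arrays, 65 were higher in both (0.435%) and 76 lower in both (0.509%). The 65 are 23.5% of the 277 genes higher with Txnip and 29.4% of the 221 higher without it, and the 76 are 30.4% of 250 and 31.8% of 239 lower genes. Classes overlap: 18 of the 97 genes low on WT were also higher in both comparisons, and 4 of the 39 genes high on WT were also lower in both. Some genes low on ob/ob alone were likewise lower in both comparisons, Cish, Cfd and Ighm among them. The remaining 116 higher and 130 lower genes belonged to none of these classes.

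**Figure D2:**
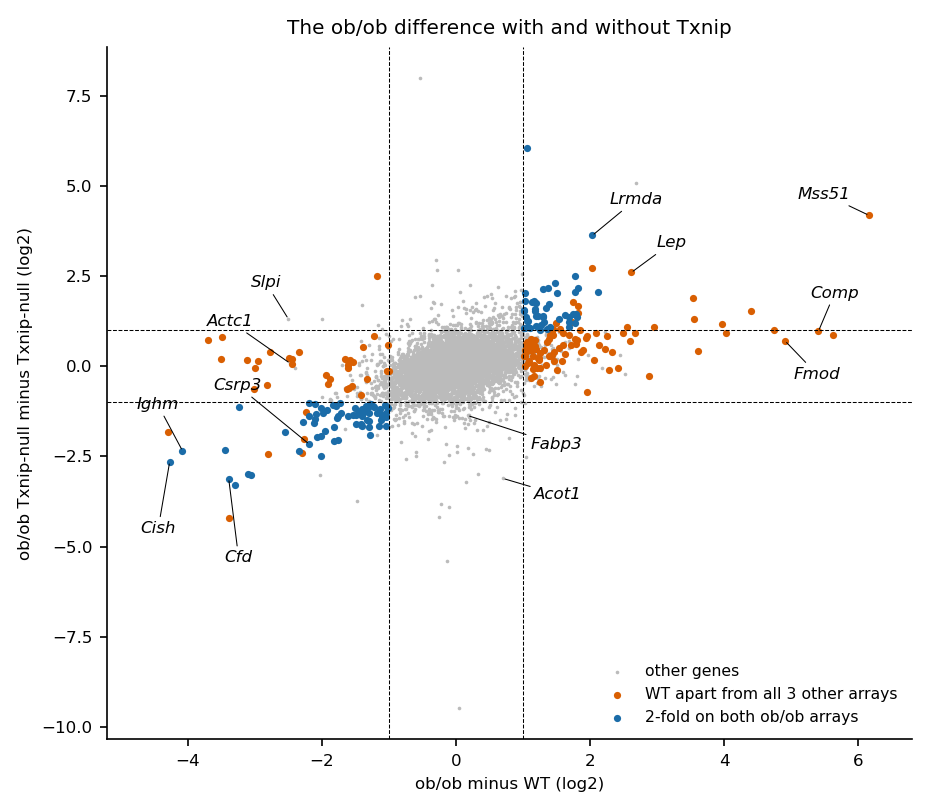
Log2 difference of ob/ob minus WT (x) against ob/ob Txnip-null minus Txnip-null (y), 1 point per gene, with 2-fold marked by dashed lines. Blue genes lie in the upper right and lower left corners, where 65 and 76 genes differed 2-fold or more in both comparisons; many orange genes, for which WT stood alone, lie near 0 on the y axis, and Slpi lies on opposite sides.

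Txnip and Lep, the genes that define the genotypes, were read first. The brighter Txnip probe gave signals of 13626, 817, 12274 and 182, so it was bright on both arrays compared here and dim on both arrays labelled as lacking it. ob/ob and WT differed by -0.15 ± 0.20 at this probe and by 0.25 at the other, opposite signs and both small. Lep, whose mutated transcript is still made in ob/ob mice, gave 37.5, 104, 230.2 and 628 and was 6.14-fold above WT in ob/ob (2.62 ± 0.08) and 6.07-fold above Txnip-null in ob/ob Txnip-null (2.60). Its probe lies on chromosome 6, from 29023244 to 29023303 (mm8) in the array's annotation. WT had the lowest signal of the 4, and both ob/ob arrays lay above both lean arrays. Lepr, the leptin receptor gene, gave 8.47, 19.8, 19.8 and 24.4 and was not well above background on WT.

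Targets of growth hormone signalling held the largest difference on the lower side among genes for which WT was not the odd array. Cish, which encodes a cytokine-inducible inhibitor of STAT5 signalling, gave 3562, 6108, 185 and 969. It was 19.3-fold lower in ob/ob with Txnip (-4.27 ± 0.21) and 6.30-fold lower without Txnip (-2.66), and both ob/ob signals lay below both lean signals. The related inhibitor gene Socs2 gave 504, 711, 166 and 272, again with both ob/ob arrays below both lean arrays, 3.04-fold lower in ob/ob with Txnip (-1.60 ± 0.21) and 2.62-fold lower without it. Its other probe gave -1.24 in the comparison with Txnip. Socs3, of the same family, differed less (925, 1312, 644 and 867, -0.52 ± 0.20), and Socs1 was close to equal between ob/ob and WT (0.19 ± 0.21).

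Major urinary protein genes, liver products known to depend on growth hormone pulses, were detected in this muscle. Mup4 and Mup1 had their highest signals on WT, while Mup3 differed by less than 2-fold between ob/ob and WT (-0.39). Mup4 gave 586, 142, 29.9 and 39.7 and was 19.6-fold lower in ob/ob (-4.29 ± 0.24), with WT alone above the other arrays. Mup1 gave 758, 151, 2.60 and 13.0 and was not well above background on ob/ob, so its difference is a bound of at least 74.9-fold lower. Members of this family are alike enough for probes to bind several of them. With normexp background correction, an alternative that compresses dim signals, Mup4 was lower by a log2 difference of -2.72.

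Genes upstream in the pathway were within 2-fold: the growth hormone receptor gene Ghr gave 9804, 9689.9, 8781 and 13035 (-0.16 ± 0.20), Stat5b 14117, 11999.9, 14312 and 16173 (0.02 ± 0.20) and Jak2 2259, 1880.2, 1455 and 1598 (-0.64 ± 0.20). Igf1, the growth factor gene induced by this pathway, was slightly lower at 410.0, 618, 319 and 494 (-0.36 ± 0.20). Bcl6, a repressor that STAT5 is known to silence, was higher in ob/ob with Txnip and lower without it (12148, 11264, 19199 and 8249.8, 0.66 ± 0.20 and -0.45). Igfbp3, which encodes a binding protein of the insulin-like growth factors, gave 233, 309, 751 and 723 and was 3.23-fold higher in ob/ob (1.69 ± 0.20) and 2.34-fold higher without Txnip, with both ob/ob arrays above both lean arrays. Of the 15 measured genes of the growth hormone and STAT5 list, 3 were 2-fold or more lower (Mup4, Cish and Socs2) and 1 higher (Igfbp3), beside 1.75% and 1.87% of all genes. The list's median was -0.31 relative to the median of all genes, and -0.27 in the comparison without Txnip; the former was -0.14 with normexp correction and -0.12 over genes at least 4 times as bright as the lowest signal well above background.

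The reference promoter of Cish carries the letters STAT5 is known to read. RefSeq promoters of GRCm38.p6, from 250 bases before to 50 bases after each start, were searched on both strands for TTCNNNGAA. It was found in 4 of the 16 promoters available for the growth hormone list (25%) and in 9.55% of promoters over 27025 genes. Of the lower genes, 2 have a promoter in the table, and Cish holds the letters while Mup4 does not; the other 3 holders, Socs3, Igfals (-0.18) and Bcl6, differed by less than 2-fold. The stretch of the Cish promoter at chr9:107296489-107296688 (+ strand) is shown because the gene had the largest lower difference among those for which WT was not alone; capitals mark the 2 matches, which lie at the annotated start.
Cish: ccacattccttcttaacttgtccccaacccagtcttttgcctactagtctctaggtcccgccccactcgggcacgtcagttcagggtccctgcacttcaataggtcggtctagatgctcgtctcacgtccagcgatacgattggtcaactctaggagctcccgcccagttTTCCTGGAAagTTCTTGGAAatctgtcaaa
A match describes the letters of the reference and was not measured as a binding site here.

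Cfd, which encodes adipsin (complement factor D), a protease secreted mainly by fat cells, was lower on both ob/ob arrays. It gave 15898, 32439, 1519.6 and 3726 and was 10.5-fold lower in ob/ob (-3.39 ± 0.20) and 8.71-fold lower in ob/ob Txnip-null (-3.12), with a gap between all lean and all ob/ob signals. Its probe lies on chromosome 10, from 79295686 to 79295745 (mm8) in the array's annotation. No other measured fat cell marker was 2-fold or more lower in ob/ob, and their directions differed. The resistin gene Retn was lower at 237, 333, 157 and 405 (-0.60 ± 0.21, and -0.72 at its other probe). Adiponectin (Adipoq) gave 1332, 3294, 2092 and 5553 (0.65 ± 0.20), the lipid droplet gene Cidec 1563, 2728, 2621 and 6423 (0.75 ± 0.20), perilipin (Plin1) 497, 818, 683 and 1686 (0.46 ± 0.20), and the fatty acid binding protein gene Fabp4 42205, 53797, 32685 and 55383 (-0.37 ± 0.20). Of 11 measured adipocyte markers, 7 lay above the median of all genes and 4 below, with Lep the only one 2-fold higher and Cfd the only one 2-fold lower; the list's median was 0.16 relative to all genes (0.10 with quantile normalization). Summed over the list, the signal was 142778, 161340, 109945 and 122857 on the 4 arrays. Among 12 measured complement genes, Cfd and C6 (-1.10 ± 0.28) were 2-fold or more lower and none was 2-fold higher; with normexp correction C6 was short of it (-0.33).

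Hp, which encodes haptoglobin, a plasma protein also made by fat tissue and raised in inflammation, differed in the other direction. It gave 1282, 1859, 4407 and 10611, 3.44-fold higher in ob/ob (1.78 ± 0.20) and 5.71-fold higher without Txnip (2.51). Both ob/ob signals again lay outside the range of both lean signals.

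Ighm, the immunoglobulin mu heavy chain gene that marks B cells, gave 11586, 17255, 686 and 3404 and was 16.9-fold lower in ob/ob (-4.08 ± 0.20) and 5.07-fold lower without Txnip (-2.34). A different Ighm probe gave -3.19 with Txnip. Other B cell genes described here were dim on every array: Cd79b gave 25.9, 52.8, 33.7 and 23.0 (0.38 ± 0.27), while Cd79a, Ms4a1 and Pax5 were not well above background on any array. Only 4 of the 9 B cell genes on the array were measured on both arrays, and whether the number of B cells in the tissue moved with Ighm was not tested. Macrophage markers showed no such difference, with 0 of 10 measured genes past 2-fold either way and a relative median of 0.04 (0.11 with quantile normalization).

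Several genes of slow fibres had lower signals in ob/ob muscle. Csrp3, which encodes the muscle LIM protein of the Z-disc, gave 26353, 21226, 5783 and 4748, 4.56-fold lower with Txnip (-2.19 ± 0.20) and 4.47-fold lower without it (-2.16). Tnnc1, slow troponin C, gave 10679.5, 9416, 4064 and 2972 (-1.39 ± 0.20 and -1.66). In both genes the lean arrays lay close together and far above both ob/ob arrays.

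Further members differed in the same direction by less than 2-fold with Txnip. Slow troponin I (Tnni1) gave 12323, 14538, 6348 and 4574 (-0.96 ± 0.20), slow troponin T (Tnnt1) 76883, 74495, 41485 and 28997 (-0.89 ± 0.20), slow myosin heavy chain (Myh7) 326838, 290508, 199745 and 134333 (-0.71 ± 0.20), and the slow calcium pump gene Atp2a2 12385, 13456, 7642 and 5095 (-0.70 ± 0.20). For each of these the lowest signal was that of ob/ob Txnip-null. Myh2 and Mb, the myosin and myoglobin genes of oxidative fibres that are not confined to slow ones, were near equal between ob/ob and WT (-0.08 ± 0.20 and -0.05 ± 0.20). Of the 13 slow fibre genes, all measured, 10 lay below the median of all genes, 2 were 2-fold or more lower and 0 higher, and the list's median was -0.65 relative to it (-0.40 with normexp correction). In the comparison without Txnip, 8 of the 13 were 2-fold or more lower and the relative median was -1.15.

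Genes of fast fibres did not stand apart. None of the 14 was past 2-fold, from Mylpf, the fast myosin light chain gene (-0.39 ± 0.20), to Tpm1 (-0.02 ± 0.20). Their relative median of -0.11 turned to 0.09 with quantile normalization, so it has no settled sign.

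Genes of the stretch response and of fibre identity are partly shared with that list. Ankrd2, a stretch-responsive ankyrin repeat protein of slow muscle, gave 22493, 24418, 9282 and 6473 (-1.28 ± 0.20 and -1.92), and Hspb1, a small heat shock protein of the Z-disc, 15195, 14456, 6743 and 5866 (-1.17 ± 0.20 and -1.30); Hspb1 was short of 2-fold with quantile normalization (-0.97). In each of these genes both ob/ob arrays lay below both lean arrays. Nmrk2, the muscle nicotinamide riboside kinase gene, gave 38136, 4031, 7912 and 1003. It differed by -2.27 ± 0.20 with Txnip and -2.01 without it, but the Txnip-null signal lay below that of ob/ob, so lean and ob/ob arrays overlapped.

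Other genes lower on both ob/ob arrays have roles outside the contractile apparatus. Actr3b, a subunit of the actin-branching Arp2/3 complex, gave 420.2, 325, 38.6 and 65.3 (-3.45 ± 0.23 and -2.31). Wdfy1, an endosomal adaptor, gave 819, 821, 95.5 and 103 (-3.10 ± 0.21 and -3.00), although its other probes ranged from -3.23 to 1.02 and so disagree on the direction. Lrtm2, a leucine-rich transmembrane protein gene, gave 426, 329, 51.1 and 40.8 (-3.06 ± 0.21 and -3.01). In all 3 the lean arrays lay within 2-fold of each other, as did the ob/ob arrays. Fos, an immediate early transcription factor gene, gave 1159, 537, 237 and 101 (-2.29 ± 0.06 and -2.41), lower in ob/ob on both backgrounds and lower without Txnip within each. Snhg16, a noncoding host gene of small nucleolar RNAs, gave 2165, 1430.1, 369 and 402 (-2.55 ± 0.20), and Slc30a2, a zinc transporter gene, 1043, 734, 229 and 361 (-2.19 ± 0.20).

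**Figure D3:**
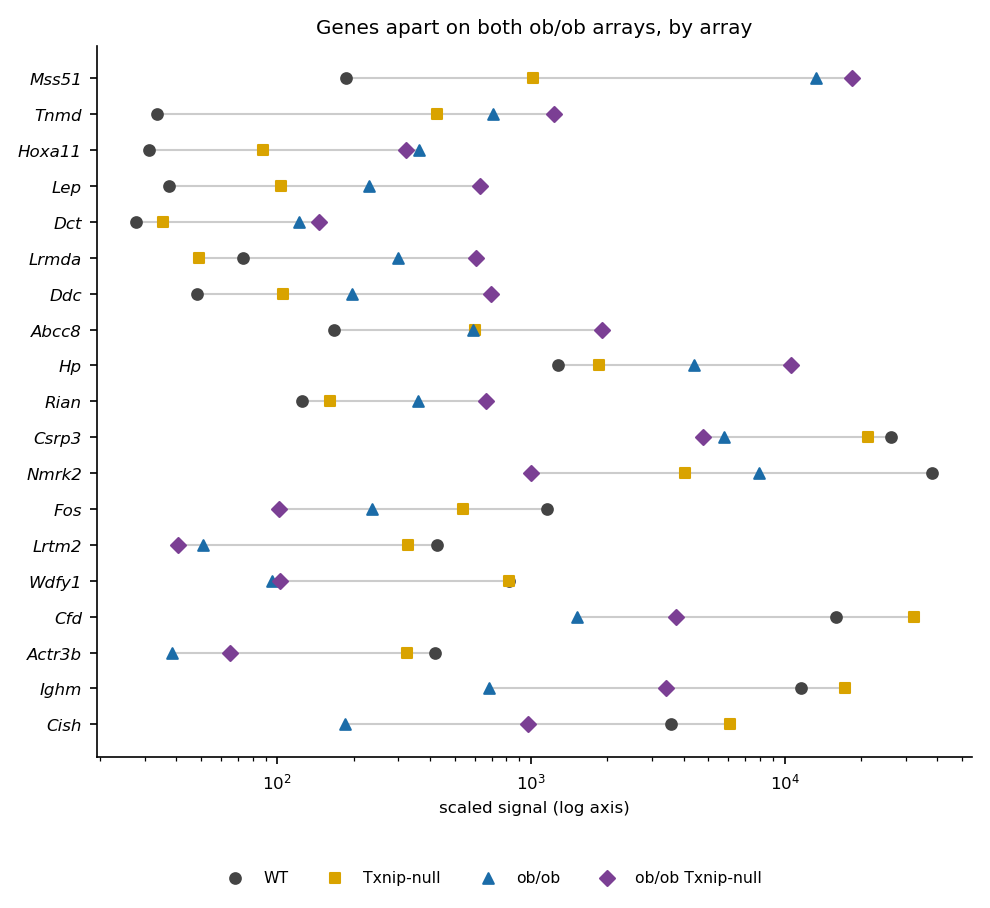
Scaled signal (log axis) on each array for genes from the 10 largest differences each way among those 2-fold or more apart in both comparisons of ob/ob with lean muscle. The grey line spans the 4 arrays of a gene. For Csrp3, Wdfy1, Lrtm2 and Actr3b the lean arrays (circle and square) sit together and apart from the ob/ob arrays (triangle and diamond), whereas for Nmrk2 and Abcc8 the Txnip-null and ob/ob signals lie next to each other or cross.

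Mss51 had the largest difference of all measured genes. It encodes a mitochondrial protein found mainly in fast muscle and known to respond to myostatin signalling, and its signals were 186, 1018, 13272 and 18498. The ob/ob signal was 71.4-fold that of WT (6.16 ± 0.20) and 18.2-fold higher without Txnip (4.18). WT lay below every other array, and both ob/ob arrays lay more than 10 times above Txnip-null. The probe lies on chromosome 14, from 19271745 to 19272112 (mm8) in the array's annotation. Myostatin itself (Mstn) gave 1559, 1268, 1872 and 2219 (0.26 ± 0.20), and of the 18 measured genes of the myostatin and TGF-beta family list only Mss51 and Inhba, an activin subunit gene (1.25 ± 0.22, WT alone), were 2-fold or more different, Inhba not with normexp correction (0.75).

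Further genes were 2-fold or more higher on both ob/ob arrays. Dct, a melanin synthesis enzyme, gave 27.9, 35.4, 121 and 147 (2.12 ± 0.24 and 2.05), and Lrmda, a gene linked to melanocyte differentiation, 73.3, 49.2, 300.5 and 608 (2.04 ± 0.21 and 3.63). Hoxa11, a homeobox gene of limb patterning, gave 31.2, 87.6, 362 and 323 (3.54 ± 0.25 and 1.88), with the lean arrays apart from each other and both below ob/ob. Ddc, which makes dopamine and serotonin from their amino acid precursors, gave 48.3, 106, 197 and 696 (2.03 ± 0.22 and 2.72), and Rian, a noncoding RNA of an imprinted cluster, 125, 162, 357 and 664 (1.51 ± 0.21 and 2.04). For these 5 genes no lean signal reached an ob/ob one. Abcc8, the sulfonylurea receptor subunit of potassium channels, gave 168, 603, 592 and 1912 (1.82 ± 0.21 and 1.66), and here Txnip-null and ob/ob overlapped. Cnn1, smooth muscle calponin, gave 169, 183, 471 and 909 (1.48 ± 0.21 and 2.31).

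Arrdc2, an alpha-arrestin of the same protein family as Txnip, gave 469, 599, 1355 and 1484 and was 2.89-fold higher in ob/ob (1.53 ± 0.20) and 2.48-fold higher without Txnip (1.31). It was the only one of the 8 measured arrestin domain and glucose sensor genes past 2-fold: Arrdc4 differed by 0.55 ± 0.21, Arrdc3 by 0.04 ± 0.20 and the glucose-sensing factor gene Mlxipl by -0.36 ± 0.20. Among the 26 measured thioredoxin and antioxidant genes, Txn1, the thioredoxin that Txnip binds, gave 3941, 3518, 3070.0 and 3971 (-0.36 ± 0.20). The plasma glutathione peroxidase gene Gpx3, at 3133, 2966, 1245 and 1057, was the only member 2-fold or more lower (-1.33 ± 0.20 and -1.49), and none was 2-fold higher. The list's relative median of -0.22 was -0.06 with quantile normalization.

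Interferon-induced genes lay below the median of all genes in ob/ob muscle. Of 31 such genes on the array 27 were measured, and 24 of them lay below the median of all genes. The list's median was -0.62 relative to all genes, and -0.64 without Txnip, while none was 2-fold or more higher and 4 were 2-fold or more lower (beside 1.87% and 1.75% of all genes). Ifit3, an antiviral protein with tetratricopeptide repeats, gave 586, 353, 247 and 209 (-1.25 ± 0.20), Gbp3, a guanylate-binding protein, 331, 299, 155 and 210.3 (-1.10 ± 0.21), and Ifi35 968, 947, 466 and 553 (-1.06 ± 0.20). Oas1a, an oligoadenylate synthetase gene, was dimmer at 52.5, 53.0, 21.3 and 21.6 (-1.30 ± 0.27). Each of these genes was lower on both ob/ob arrays than on both lean arrays.

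Other members differed by less than 2-fold. The transcription factor gene Irf7 gave 62.1, 72.8, 37.4 and 35.5 (-0.73 ± 0.23), the deconjugating enzyme gene Usp18 176, 182, 90.7 and 105 (-0.96 ± 0.21) and the ubiquitin-like modifier gene Isg15 102, 102, 69.9 and 61.7 (-0.55 ± 0.22). The exceptions above the median were Rsad2 (0.01 ± 0.21), Igtp (0.17 ± 0.20) and Ifit2 (0.42 ± 0.23). Of the 10 measured antigen presentation genes, which interferons also induce, 0 passed 2-fold, and all lay below the median of all genes, with a relative median of -0.46; H2-Ab1, a class II chain, gave 1388, 1666, 882 and 984 (-0.65 ± 0.20), and B2m, the class I light chain, 3012, 3557, 1966 and 2423 (-0.62 ± 0.20). With normexp correction the interferon list's relative median was -0.35, and Oas1a (-0.48), Gbp3 (-0.86) and Ifi35 (-0.93) were short of 2-fold.

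The interferon-stimulated response element, searched on both strands as GAAA, any 2 bases and GAAA again, was present in 13 of the 25 RefSeq promoters available for this list (52%) and in 3.99% of promoters over 27025 genes. Of the 4 genes that were 2-fold or more lower, 3 hold it, and a 200-base stretch of each is shown 5′ to 3′ on the gene's strand with the matches in capitals, where overlapping matches run together: Oas1a at chr5:120907496-120907695 (- strand), Ifit3 at chr19:34583359-34583558 (+ strand) and Gbp3 at chr3:142559874-142560073 (+ strand), GRCm38.p6.
Oas1a: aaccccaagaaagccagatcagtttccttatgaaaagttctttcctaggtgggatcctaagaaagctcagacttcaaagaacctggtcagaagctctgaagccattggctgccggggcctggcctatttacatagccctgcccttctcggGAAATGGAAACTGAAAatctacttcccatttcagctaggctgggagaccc
Ifit3: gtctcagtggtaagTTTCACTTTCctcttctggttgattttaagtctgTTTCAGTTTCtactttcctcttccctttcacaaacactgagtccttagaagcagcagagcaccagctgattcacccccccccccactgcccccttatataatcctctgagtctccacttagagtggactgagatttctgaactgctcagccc
Gbp3: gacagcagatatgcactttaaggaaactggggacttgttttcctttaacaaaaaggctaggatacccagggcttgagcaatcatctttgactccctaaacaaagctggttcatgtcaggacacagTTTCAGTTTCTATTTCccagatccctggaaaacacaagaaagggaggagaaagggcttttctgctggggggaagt
The element stands in the forward letters in Oas1a and as its reverse complement, TTTC, any 2 bases and TTTC, in Ifit3 and Gbp3. Many genes of the list that hold it differed by less than 2-fold, Isg15 and Ifit1 (-0.68 ± 0.29) among them.

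Enzymes of fatty acid and cholesterol synthesis lay on the higher side. Elovl6, which lengthens saturated fatty acids, gave 84.4, 123, 219 and 555 (1.38 ± 0.21 and 2.18), with both ob/ob arrays above both lean arrays; with normexp correction its difference with Txnip was 0.90. The stearoyl-CoA desaturase genes Scd1 and Scd2 gave 3279, 7240.2, 7175 and 11094 (1.13 ± 0.20) and 1034, 1433, 2142 and 2476 (1.05 ± 0.20), WT being the lowest in both. Fasn, fatty acid synthase, gave 7757, 8980.1, 11522 and 27587 (0.57 ± 0.20 and 1.62). Of the 21 genes of this list, all measured, 16 lay above the median of all genes, 3 were 2-fold or more higher (Elovl6, Scd1 and Scd2) and 0 lower, and the list's median was 0.49 relative to it both with and without Txnip. Gpam, which starts triglyceride synthesis, went against the list at 183, 203, 110.0 and 122 (-0.74 ± 0.21).

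Fatty acid oxidation genes did not follow a common direction with Txnip. Of 23 measured, 15 lay above the median of all genes, 0 were 2-fold higher and 2 were 2-fold lower: Pdk4, which restrains pyruvate oxidation, gave 28795, 69951, 8177 and 21545 (-1.82 ± 0.20 and -1.70), and Ucp3, a mitochondrial carrier of muscle, 1456, 2024, 519 and 789.7 (-1.49 ± 0.20 and -1.36). The list's relative median was 0.09 with Txnip (0.20 with quantile normalization) and -0.90 without it, where 10 genes were 2-fold or more lower. Acadl, long-chain acyl-CoA dehydrogenase, shows the contrast at 5431, 7558, 5426 and 3366 (-0.00 ± 0.20 and -1.17), as do Hadhb at 22270.5, 28079, 18301 and 12898 (-0.28 ± 0.20 and -1.12) and Fabp3, the muscle fatty acid binding protein gene, at 76514, 157710.0, 86432 and 61113 (0.18 ± 0.20 and -1.37). For Fabp3 and Acadl the ob/ob Txnip-null array was the lowest and Txnip-null the highest. Whether these differences with and without Txnip differ from each other beyond the spread between mice was not tested, as each has 1 array a side.

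In insulin signalling, Tbc1d1, which holds glucose transporters inside the muscle cell until it is phosphorylated, gave 182, 232, 539 and 312 and was 2.96-fold higher in ob/ob (1.57 ± 0.21, 1.499 at its other probe), against 0.43 without Txnip. Irs1, the insulin receptor substrate gene, gave 6985, 9826, 4291 and 7397 (-0.70 ± 0.20), Pik3r1, the regulatory subunit of phosphoinositide 3-kinase, 215, 251, 384 and 325 (0.84 ± 0.21), and Grb10, an adaptor that restrains the insulin receptor, 2125, 2751, 3668 and 4521 (0.79 ± 0.20). By the brightest probe, Tbc1d1 was the only one of 26 measured genes past 2-fold, and the list's relative median was 0.16. Dimmer probes of Grb10 gave 0.45 and 1.14 and those of Pik3r1 0.48, 0.82 and 1.01, so they lie on either side of 2-fold. Among glycogen genes, Ppp1r3c, which targets a phosphatase to glycogen, gave 4179, 7495, 7203 and 13646 (0.79 ± 0.20), and its other, dimmer probe 498, 1039.7, 1366 and 2208 (1.45 ± 0.20), so the probes lie on either side of 2-fold. By the brightest probe, no gene of 15 was past 2-fold.

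Oxidative phosphorylation genes were low as a group but by little. All 34 lay below the median of all genes, from -0.90 ± 0.20 for the complex I subunit gene Ndufc1 (53462, 41778, 28695 and 35403) upward, none passed 2-fold, and the list's median was -0.32 relative to it. Genes of their brightness lay low in general. The median log2 difference over all genes was 0.02 below a signal of 100, -0.12 between 1000 and 10000, and -0.27 between 10000 and 100000, the last over 864 genes. With quantile normalization, which removes this trend, the relative median of the list was -0.08. The tricarboxylic acid cycle list, at -0.13, turned to 0.13.

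**Figure D4:**
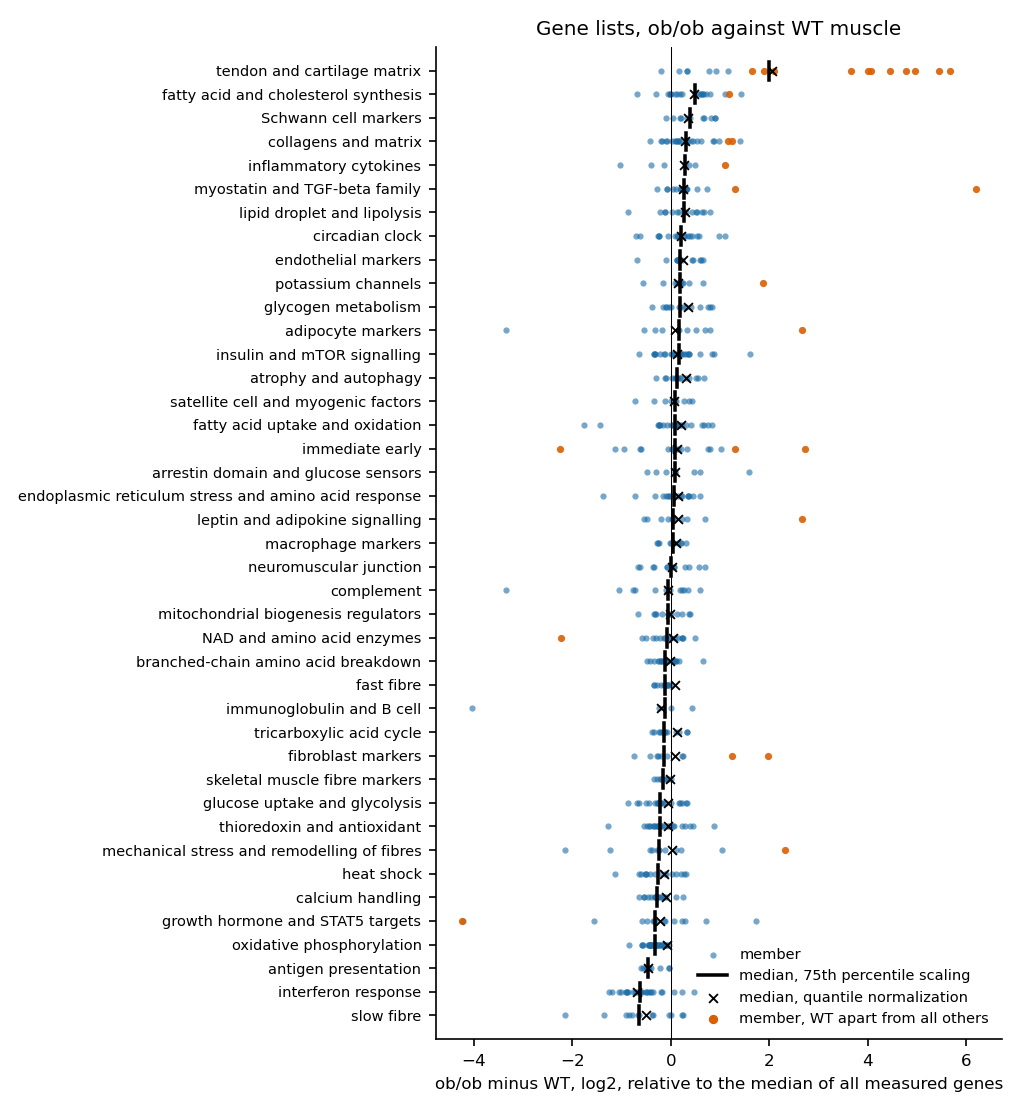
Log2 difference of ob/ob minus WT, with the median over all genes taken off, for the measured members of each gene list (points), with the list's median under 75th percentile scaling (bar) and quantile normalization (cross). Orange members are genes for which WT stood alone. The tendon list has the highest median (1.999), mostly from orange points, and slow fibre (-0.65) and interferon genes (-0.62) the lowest, while the bar and the cross part for lists of bright genes such as oxidative phosphorylation.

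Genes for which WT alone stood low were led, after Mss51, by matrix genes of tendon and cartilage. Angptl7, a secreted angiopoietin-like protein, gave 19.3, 447, 951 and 822, Comp, cartilage oligomeric matrix protein, 40.3, 1294, 1707 and 2538, and Fmod, the collagen-binding proteoglycan fibromodulin, 152, 3653, 4557 and 5921. In these genes the 3 other arrays lay close together and WT far below. They were 49.4-fold, 42.4-fold and 30.04-fold above WT in ob/ob, but less than 2-fold higher without Txnip (0.88, 0.97 and 0.70). The sizes with Txnip rest on dim WT signals. As log2 differences they were 5.63, 5.41 and 4.91, and with normexp correction 3.65, 4.13 and 4.54.

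Further such genes were Cilp2, a cartilage matrix protein (26.9, 525, 718 and 1059.9), Tnmd, the tendon membrane protein tenomodulin (33.7, 428, 710.2 and 1231), Kera, keratocan (64.4, 1157, 1046 and 2197), and Col22a1, a collagen of the junction between muscle and tendon (268, 2251, 4169.6 and 5037, with another probe at 4.39). Of these, Tnmd, Cilp2 and Col22a1 were also 2-fold or more higher without Txnip (1.52, 1.01 and 1.16). Scx, the transcription factor gene of the tendon lineage, differed less at 1395, 1991, 2296 and 2471 (0.72 ± 0.20). Of 18 measured tendon and cartilage genes, 12 passed 2-fold on the higher side and 0 on the lower, and 11 of the 12 stood apart on WT; the list's median was 1.999 relative to all genes with Txnip and 0.60 without. The summed signal of the list was 13717, 31989, 44098 and 56373, lowest on WT. Whether the WT sample held less tendon than the others was not tested.

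Ankrd1, a stretch-responsive cardiac ankyrin repeat gene, behaved alike at 168, 1359, 814 and 1271 (2.28 ± 0.21 and -0.10), as did Ccn2, the connective tissue growth factor gene, at 1618, 6738, 10314 and 12772 (2.67 ± 0.20 and 0.92). Collagens of the general muscle matrix differed less: Col1a1, of type I collagen, gave 7135, 19748, 16233 and 32618 (1.19 ± 0.06) and Col3a1, of type III, 14261, 19895, 13035 and 22459 (-0.13 ± 0.20). Of 25 measured collagen and matrix genes 3 were 2-fold or more higher (Eln, Col1a1 and Postn, of which elastin, Eln, at 118, 162, 304 and 334 was not on WT alone) and 0 lower, with a relative median of 0.31. Schwann cell markers were summed at 5956, 12181, 9520 and 14150, lowest on WT, with 0 of 11 past 2-fold.

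Among genes for which WT alone stood high, brighter Nmrk2 and Fos included, the 8 with the largest differences were Mup4, described above, Fthl17a, a ferritin heavy chain relative (154, 12.1, 13.6 and 14.0, -3.51 ± 0.30), Cacna2d4, a calcium channel subunit (181, 41.8, 17.3 and 2.26, -3.38 ± 0.28), the Src-family kinase gene Fgr (-3.11 ± 0.26), Trim12c (-3.01 ± 0.28), Hoxb9 (-3.00 ± 0.33), Ccdc146 (-2.95 ± 0.24) and the lymphocyte receptor gene Cd27 (-2.80 ± 0.27). With normexp correction these differences were smaller: Fthl17a -1.59, Cacna2d4 -1.65, Fgr -1.55, Hoxb9 -1.12, Ccdc146 -1.59 and Cd27 -1.24. On the WT array, 5 of the 8 spots around that of Fthl17a lay 2-fold or more above the median of the other arrays. The same held for 3 of the 8 around that of Hoxb9. Over all spots, 1.7% lay 2-fold or more above that median on WT and 2.63% below it. The part of the array surface in these values was not tested.

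**Figure D5:**
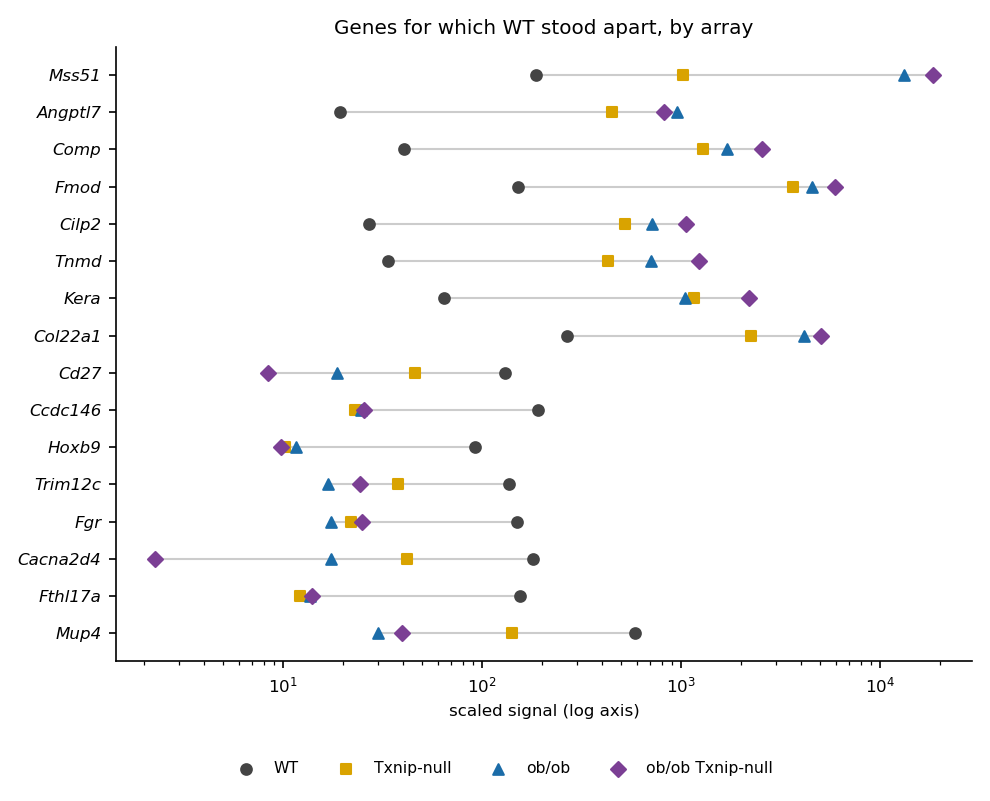
Scaled signal (log axis) on each array for the genes with the 8 largest differences each way among those where WT stood 2-fold or more from all other arrays. WT (circle) lies at the left end for Mss51 and the tendon genes and at the right end for Mup4 to Cd27; for Fmod, Comp and Angptl7 the other 3 arrays cluster together.

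The ob/ob array alone stood apart for fewer genes. Actc1, the cardiac alpha-actin gene that is also expressed in developing skeletal muscle, gave 27253, 24960.4, 4907 and 26394, so 3 arrays were nearly equal and ob/ob was 5.55-fold lower than WT (-2.47 ± 0.20), against 0.08 without Txnip. H19, an imprinted noncoding RNA, gave 4042, 6560.4, 14149.6 and 5479 and was 3.50-fold higher in ob/ob (1.81 ± 0.20, 1.68 at its other probe), against -0.26 without Txnip. Katnal2, a katanin-like microtubule severing protein gene, gave 369, 929, 39.2 and 427 (-3.23 ± 0.22 and -1.12). Chac1, which degrades glutathione, was likewise lowest on ob/ob at 8227, 18261, 3055 and 7348 and differed by -1.43 ± 0.20 with Txnip and -1.31 without it. On the WT array 5 of the 8 spots around that of Chac1 lay 2-fold or more above the median of the other arrays. The part of this in its value was not tested. Xlr4b, an imprinted X-linked gene, was highest on ob/ob at 256, 83.5, 649 and 253 (1.34 ± 0.20 and 1.60).

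Some higher genes of the comparison with Txnip fell outside these classes. Tmem100, a membrane protein of endothelium, gave 268, 501, 759 and 570.2 (1.504 ± 0.20, and 0.77 at another probe), and Nedd9, a scaffold of focal adhesions, 83.7, 130.3, 241 and 116 (1.53 ± 0.21); both were within 2-fold without Txnip (0.19 and -0.17). Chrna9, a nicotinic acetylcholine receptor subunit gene, gave 24.1, 2.32, 155 and 78.0 (2.68 ± 0.27), and the Txnip-null signal was not well above background. Among 18 measured clock genes, Cry1, a repressor of the circadian clock, was the only one past 2-fold (31.2, 36.7, 64.4 and 50.1, 1.05 ± 0.25), but its other probe gave 0.08 and the difference was 0.97 with quantile normalization and 0.44 with normexp correction, and Per1 gave 1651, 2527, 3149 and 2642 (0.93 ± 0.20). Hours of dissection are not stated in the labels.

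A difference can also be bounded for genes that a single array of the pair measured. Genes with a RefSeq symbol were taken, with clone and predicted names passed over. A bound above equality was found for 460 measured on ob/ob alone and 220 measured on WT alone. Of the 460, 98 were at least 2-fold higher in ob/ob, and of the 220, 97 were at least 2-fold lower. Each gene entered only through the array on which it was bright, so its direction was fixed by the selection. These counts are therefore no support for a difference. Fewer probes were well above background on WT (22678) than on ob/ob (23435), and the part of this in the counts was not tested. Col8a2, a basement membrane collagen gene (10.8, 182, 279 and 361), was at least 24.2-fold higher, Six2, a homeobox gene (7.27, 50.7, 266 and 288), at least 23.1-fold, and Wif1, a secreted Wnt inhibitor (3.44, 184, 211 and 199.7), at least 18.3-fold. All 3 were well above background on every array but WT. On the lower side, Tinag, a basement membrane glycoprotein gene, gave 163, 207, 9.15 and 15.6 and was at least 16.1-fold lower in ob/ob, with both lean arrays above both ob/ob arrays.

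The 4 arrays allow 1 test across genes, an additive fit with an ob/ob term and a Txnip term (limma, Benjamini-Hochberg adjustment, 1 residual degree of freedom). Its error is the departure of the arrays from additivity, not the spread between mice. Of 16149 genes tested, the ob/ob term passed an adjusted p of 0.05 for 16 higher genes (0.0991%) and 16 lower genes (0.0991%), and 9 of the 32 were well above background on all arrays. Among the 9, the log2 coefficient was -3.25 for Cfd (limma adjusted p = 0.0279), -3.05 for Wdfy1 (limma adjusted p = 0.0279) and -3.04 for Lrtm2 (limma adjusted p = 0.0279). Fos fell by 2.35 (limma adjusted p = 0.0394) and Csrp3 by 2.17 (limma adjusted p = 0.0443). Lep rose by 2.61 (limma adjusted p = 0.0343) and Dct by 2.09 (limma adjusted p = 0.0471). Mss51 had a coefficient of 5.17 (limma adjusted p = 0.0708), Cish one of -3.46 (limma adjusted p = 0.102) and Ighm one of -3.21 (limma adjusted p = 0.122), and these did not pass. With quantile normalization the fit called 0 genes in either direction (2197 at an unadjusted p under 0.05), while it called 36 higher and 54 lower with normexp correction, so the calls depend on the processing.

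Genes were also placed by their position. Within 20 Mb of the Lep probe 173 genes were measured and 2.89% of them were 2-fold or more different, beside 3.61% on other chromosomes; within 5 Mb, 46 genes were measured and 4.35% passed, Lep included. By chromosome, the share of genes 2-fold or more different in both comparisons was highest on chromosome 8, at 2.06% of 778 genes (7 higher and 9 lower, Hp and Arrdc2 among the higher), beside 0.94% over all chromosomes. Chromosomes 14 (1.53%) and 10 (1.42%) came next, and chromosome 4 was lowest (0.539%). Chromosome 8 was picked after the shares were seen, and its share was not tested.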

How the data were processed

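Per the file headers, the authors obtained the spot intensity values with Agilent Feature Extraction 9.5.3.1, with spatial and multiplicative detrending on and surrogates in use for low signals. Per the labels, 0.5 micrograms of RNA were labelled together with spike-in RNA. The authors also deposited a log2 value table. Set against the scanner signals, it is centred on each probe's median, with column medians of 0.09, -0.06, -0.01 and 0.01, and over probes well above background on both arrays its ob/ob minus WT differences match those used here (r = 0.999986, slope 1.00); how its low values were treated was not stated.

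From the processed intensities, log2 values were taken relative to the 75th percentile of the non-control probes of each array. Outlier spots (78 on WT, 62 on Txnip-null, 59 on ob/ob, 110 on the double mutant) were left out unless all spots of a probe were outliers. Replicate spots were averaged, and a gene was represented by its brightest probe. Probes were named by accession (24496), symbol (6236) or synonym (2378) in RefSeq tables of GRCm38.p6, and otherwise kept the file's name (8064); positions come from the array's mm8 annotation. For a gene measured on 1 array of the pair, the dim array was given its own signal or the lowest signal well above background there, whichever was higher, which yields "at least N-fold". The additive fit used limma 3.58.1 in R 4.3.3 on genes that at least 2 of the arrays measured (3.519 prior degrees of freedom), and scripts were tested on simulated data. Promoters and 43 gene lists were described by counts and medians, without a test. Alternatives were other scalings, normexp correction, filters, probe rules and a 3-fold threshold.

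The comparison, lists and rules were chosen with earlier results of these data known. Named genes were those past 2-fold also under quantile and normexp processing: the 12 largest each way where WT was not alone, 8 where WT was alone, 6 where ob/ob was alone and 10 past 2-fold in both comparisons, with up to 4 bounds each way, up to 5 members of each list, Txnip and Lep. Clone and predicted names were passed over, and further list members were named where a list is described; some genes that meet the rule are not reported here. The number of arrays limits the precision.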

Additional observations from a re-analysis of the deposited data

Results flagged for a closer look

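Slpi, a secreted inhibitor of leukocyte proteases, differed at its brighter probe in opposite directions with and without Txnip. Its signals were 119, 89.7, 21.1 and 223 on WT, then Txnip-null, then ob/ob and last ob/ob Txnip-null. The ob/ob signal was below that of WT (log2 difference -2.50 ± 0.25, standard error of the scanner's error model), while without Txnip the ob/ob signal was the higher (1.32). The ob/ob array thus lay below, and the double mutant above, both lean arrays. Each difference has 1 array a side, so the difference between them was not tested. The other Slpi probe gave 80.1, 2.37, 2.28 and 4.85 and was well above background on WT only. It does not show the higher signal on the double mutant, so the opposite directions rest on a single probe.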

How the results depend on the processing

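Of 232 named genes, the 77 past 2-fold kept their direction under the alternatives run (quantile, spike-in and median scaling, normexp correction, the deposited value table, the median of a gene's probes and filters on dim probes). Of those short of 2-fold, 61 changed sign under at least 1 of these, 57 of them with spike-in scaling. The kept direction of the 77 was largely fixed in advance and is no support for them. Genes named by rank had to pass 2-fold with quantile and normexp processing. Spike-in and median scaling shift all genes alike, by less than 2-fold, and the filters leave a gene's value unchanged. Counts are given below as higher and lower in ob/ob, WT alone low and high, ob/ob alone high and low, and both comparisons higher and lower, against 282, 264, 97, 39, 23, 32, 65 and 76. Spike-in scaling gave 1748, 79, 223, 24, 149, 9, 111 and 44. Normexp correction gave 86, 91, 29, 15, 3, 14, 22 and 34. Genes well above background on either array gave 687, 577, 213, 252, 161, 62, 143 and 117. A signal 4 times the lowest well above background gave 135, 149, 48, 11, 5 and 19, and 31 higher in both. A 3-fold threshold gave 73, 81, 26, 18, 8, 9, 11 and 20. The median of probes gave 35 high on ob/ob alone. Array median scaling gave 240 higher and 309 lower. Beside 16 higher and 16 lower, the additive fit in limma called 0 and 0 with quantile normalization, 149 and 61 with spike-in scaling, 36 and 54 with normexp, and 35 and 49 over genes on all 4 arrays. Among lists more than 0.0871 from the median of all genes, the relative median changed sign for fast fibre (quantile 0.094, normexp 0.066), mechanical stress (0.034, 0.036), tricarboxylic acid cycle (0.127, 0.126) and fibroblast lists (0.090, 0.098), and with normexp for muscle fibre markers (0.013) and branched-chain amino acid breakdown (0.00039). The cause of these moves was not tested, except that the filters and the threshold change the genes counted. No paired analysis was possible because each genotype has 1 array and a group has no replicates.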

Other observations

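Some gene groups were not described above. Heat shock genes had a median of -0.27 relative to all genes (-0.14 with quantile normalization), with Hspb1 the only one of 16 past 2-fold; Hspa1a, the inducible chaperone gene, gave 3000.5, 3192, 1909.9 and 1062 (-0.65 ± 0.20 with Txnip, -1.59 without it). Among 18 measured immediate early genes, Ccn2 and Klf10 were 2-fold or more higher and Fos and Fosb lower (Fosb -0.59 with normexp correction), and Egr1 was just short of it at 814, 245, 407 and 209.7. Calcium handling genes had a relative median of -0.27, which was -0.10 with quantile normalization, glucose uptake and glycolysis genes one of -0.21 (-0.06 with quantile normalization), and endothelial markers one of 0.19. In the satellite cell and neuromuscular junction lists, 0 of 9 and 0 of 13 genes were past 2-fold.

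Beside Slpi, 5 genes passed 2-fold in opposite directions with and without Txnip. Kl, which encodes the hormone co-receptor klotho, differed by -1.99 with Txnip and 1.30 without it, and the transcription factor gene Ebf4 by -1.40 and 1.68. Htra4, a serine protease gene, differed by -1.16 and 1.14 and the transcript AK080551 by -1.11 and 1.04, while Lypd5 differed by 1.03 and -1.03. These genes were chosen after their values were seen, and the difference between the comparisons was not tested.

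Some genes called by the additive fit were well above background on both ob/ob arrays and on neither lean array. Ubd, a ubiquitin-like modifier gene, gave 4.72, 4.85, 53.2 and 66.8. Angptl8, a regulator of lipoprotein lipase, gave 3.85, 9.04, 31.6 and 103, and Ncan, a brain proteoglycan gene, 4.06, 2.36, 142 and 259. Their lean signals were not well above background, so the fitted coefficients are no measure of size. They entered the fit only through the ob/ob arrays, on which they were high, so their being called is no support for a difference. These genes were chosen after their values were seen.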
